A study of Homo sapiens with 3 samples.

Results

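The cytosolic ribosomal protein genes were described across 3 single-cell RNA libraries of HCT116, a human colorectal carcinoma cell line. Members were the features whose symbol is RPL or RPS followed by a number, or RPLP0, RPLP1, RPLP2 or RPSA, leaving out the RPS6K kinases and names with a hyphen. The mean level over the 3 libraries also had to reach 1 CPM (counts per 1000000 UMIs of the library's kept cells, where a UMI is a unique molecular identifier marking 1 captured mRNA molecule). This gave 84 members among 19912 features, from 88 symbols that match the pattern. The 4 left out for their level were RPL10L and RPS4Y2 with 0 UMIs in every library, RPL39L at a mean of 0.142 CPM and RPL3L at a mean of 0.569 CPM. Just inside the minimum was RPS4Y1, the Y-linked copy of RPS4X, at 3.27 CPM in the not stretched top, 2.34 CPM in the stretched top and 2.35 CPM in the stretched bottom library. Of the 84 members, 83 were counted by name as ribosomal protein genes, 50 of the large (60S) and 33 of the small (40S) subunit. These include 6 paralog copies, whose place in the ribosome was not examined. The other, RPS19BP1, matches the naming rule but encodes a protein that binds RPS19.

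The cells carried a histone H2B-GFP label and had grown in an organ-on-chip, a microfluidic culture device with a top and a bottom channel. The study compared top-channel cells without peristalsis-like stretch, top-channel cells after 6 days of stretch, and cells recovered from the bottom channel of stretched chips, which the labels call invaded. Cells were detached with 0.25% trypsin and sorted for GFP before droplet capture. Each group had 1 library, so no test between groups was possible, differences are described by their size, and intervals cover counting error only. With 3 libraries, each of the 3 comparisons shares a library with the other two. Values below are in the order not stretched top, stretched top, stretched bottom unless another order is named.

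Each ribosome contains a nearly complete set of ribosomal proteins, which are made in the cytoplasm, imported into the nucleolus and assembled on ribosomal RNA with the help of biogenesis factors. Most of their mRNAs start with a cytidine and a run of pyrimidines, the 5′ terminal oligopyrimidine (TOP) motif, through which mTORC1 and LARP1 control translation. In growing carcinoma cells these mRNAs are among the most abundant in the cytoplasm.

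The kept cells numbered 17206, 20121 and 1951, with 212503735, 210814252 and 76641034 UMIs in all. The median kept cell had 10964, 9384 and 40387 UMIs, of which a median of 9.64%, 10.4% and 4.09% came from mitochondrially encoded genes. Depth and mitochondrial share thus moved with the bottom channel, and their part in its differences was not tested beyond the matched-depth values given below. In the bottom library those values rest on 556 of its 1951 kept cells. Among the 556 are 156 cells (median 15160 UMIs) with a median ribosomal protein share of 10.4% and a median mitochondrial share of 10.9%. Cells above 40000 UMIs are left out, among them 854 (median 52955 UMIs) with medians of 23.2% and 3.84%. Matching thus changed the makeup of the bottom cells as well as their depth, and the part of each was not tested. Of 7 epithelial markers, 6 averaged 1 CPM or more, summing to between 4164 and 4491 CPM over the list, while CDX1 was near 0. Of the 5 with 10 CPM or more in either library, 1 was at least 1.5-fold lower in the bottom than in each top library. Over all features the shares so much lower were 11% against the stretched top and 20.7% against the not stretched top. Under other choices of cells or scaling, 0 to 1 were lower against the stretched top. Against the not stretched top 0 to 2 were lower and 0 to 2 higher. The 7 endothelial markers summed to 4.61, 3.67 and 7.36 CPM. CLDN5 was at 0.770 CPM and CDH5 at 0.744 CPM in the bottom library and at or below 0.057 CPM in both top libraries. The highest marker of this list was at 2.72, 1.99 and 2.11 CPM, and only 2 of the 7 averaged 1 CPM or more. In the bottom library both lay above the stretched top, and 1 lay above and 1 below the not stretched top. Between libraries, 285, 247 and 130 barcodes were also found in another library, and leaving them out moved no count of members past the fold by more than 1.5 times.

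The TOP motif was read from the RefSeq start sites on GRCh38.p14, on the strand of the gene. A start was counted as TOP where its first base is C and at least the next 4 bases are C or T. Of the 83 ribosomal protein members, 68 had a listed start, and 48 of these (70.6%) had at least 1 TOP start. Over all features with a listed start, 945 of 14854 (6.36%) had one. The windows below hold 8 bases before the listed start and 16 from it, with the uninterrupted pyrimidine run at the start in capitals. They show members past the 1.5-fold threshold used below, with and without such a run, and 3 paralog pairs.
RPL39 (chrX:119791615-119791638, minus strand): gccagcttCCCTCCTCTTCCTTTC
RPL41 (chr12:56116625-56116648, plus strand): tcgcctttCTCTCggccttagcgc
RPL38 (chr17:74203670-74203693, plus strand): gtctcgttCTTTTTCgtccttttc
RPS10 (chr6:34426054-34426077, minus strand): tgctccttCCTTTCCagccccggt
RPL37A (chr2:216498836-216498859, plus strand): gtctcttcCTTTCTgggctcggac
RPL27A (chr11:8682784-8682807, plus strand): aggccttcCTTTTTCgtctgggct
RPL17 (chr18:49492450-49492473, minus strand): ccctaagcagcctgaggtgagtgt
RPS26 (chr12:56041910-56041933, plus strand): ataacctcgattttcttccgccat
RPS28 (chr19:8321488-8321511, plus strand): agcacgtgactcctctccgccaga
RPS27 (chr1:153990754-153990777, plus strand): ctttcgctCCTTTCCggcggtgac
RPS27L (chr15:63157462-63157485, minus strand): tgccgagcgcagatcgcttgcagc
RPL26 (chr17:8383178-8383201, minus strand): gtgtagttCTCTTCCCTTTTgcgg
RPL26L1 (chr5:172958721-172958744, plus strand): caggggtcggcgaacgaaacgcgg
RPL22 (chr1:6199580-6199603, minus strand): ctcacctcCCTTTCTaactccgct
RPL22L1 (chr3:170870180-170870203, minus strand): gtagcttcCTCTCTgctctcgcgg

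RPL39 had a run of 19 pyrimidines, of which the window shows the first 16. Of the 16 members that passed 1.5-fold in any comparison and had a listed start, 10 had a TOP start and 6 did not. RPL17, RPS26, RPS28, RPL27, RPL26L1 and RPS27L, each higher in at least 1 comparison, were the 6 without it. RPL37A and RPL27A, lower in the bottom channel, had it, as did RPL39 and RPL38, which were higher in stretched or bottom-channel cells. Among the paralog copies, RPS27L, RPL26L1, RPL7L1 and RPL36AL had no TOP start in these windows, and RPL22L1 and RPS4Y1 had one. Members with a listed TOP start had a median log2 ratio of 0.16 between stretched and not stretched top cells, and the 20 whose listed starts lack it had 0.05. For stretched bottom against stretched top these medians were −0.06 and 0.08. These are descriptions of listed windows, and a start used in these cells may lie elsewhere.

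Ribosomal protein genes supplied a large share of all UMIs in each library: 21.6% in the not stretched top (95% Clopper-Pearson interval 21.6162 to 21.6272), 23.5% in the stretched top (23.4758 to 23.4872) and 22.8% in the stretched bottom (22.8178 to 22.8366). Of nuclear-encoded UMIs only, the shares were 23.9%, 26.1% and 23.8%, so the order of the bottom and the not stretched top library turned when mitochondrially encoded UMIs were set aside. The 60S genes held 12.5%, 13.6% and 13.2% of UMIs and the 40S genes 9.09%, 9.89% and 9.61%. Within the ribosomal protein total the 60S genes held 57.9%, 57.8% and 57.8%, which shows that the balance of the subunits differed by about 0.1 percentage points between libraries.

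Levels of single members spanned from a few CPM to 8771 CPM. In this 3′ assay a molecule is counted once at its end, so CPM needs no division by length, but reads shared with processed pseudogene copies could be assigned differently from gene to gene. GENCODE names up to 91 pseudogenes for a member (RPL23A), and a level set between genes is uncertain for that reason. RPS18, a protein of the 40S head, was highest at 8771, 8683 and 7568 CPM. RPL13 followed at 8238, 8221 and 6267 CPM. RPLP1, an acidic protein of the P stalk that recruits elongation factors, stood at 6227, 7142 and 6989.8 CPM. The top 5 were completed by RPS12 (6259.5, 6827 and 7169 CPM) and RPL12, at the base of the stalk (5478, 5753 and 5673 CPM). At the other end stood RPS4Y1, the paralog RPL7L1 at 72.5, 65.5 and 78.2 CPM, the paralog RPL26L1 at 107, 100.1 and 171 CPM, RPS19BP1 at 168, 152 and 249 CPM, and RPL17 at 159, 162 and 403 CPM.

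**Figure D1:**
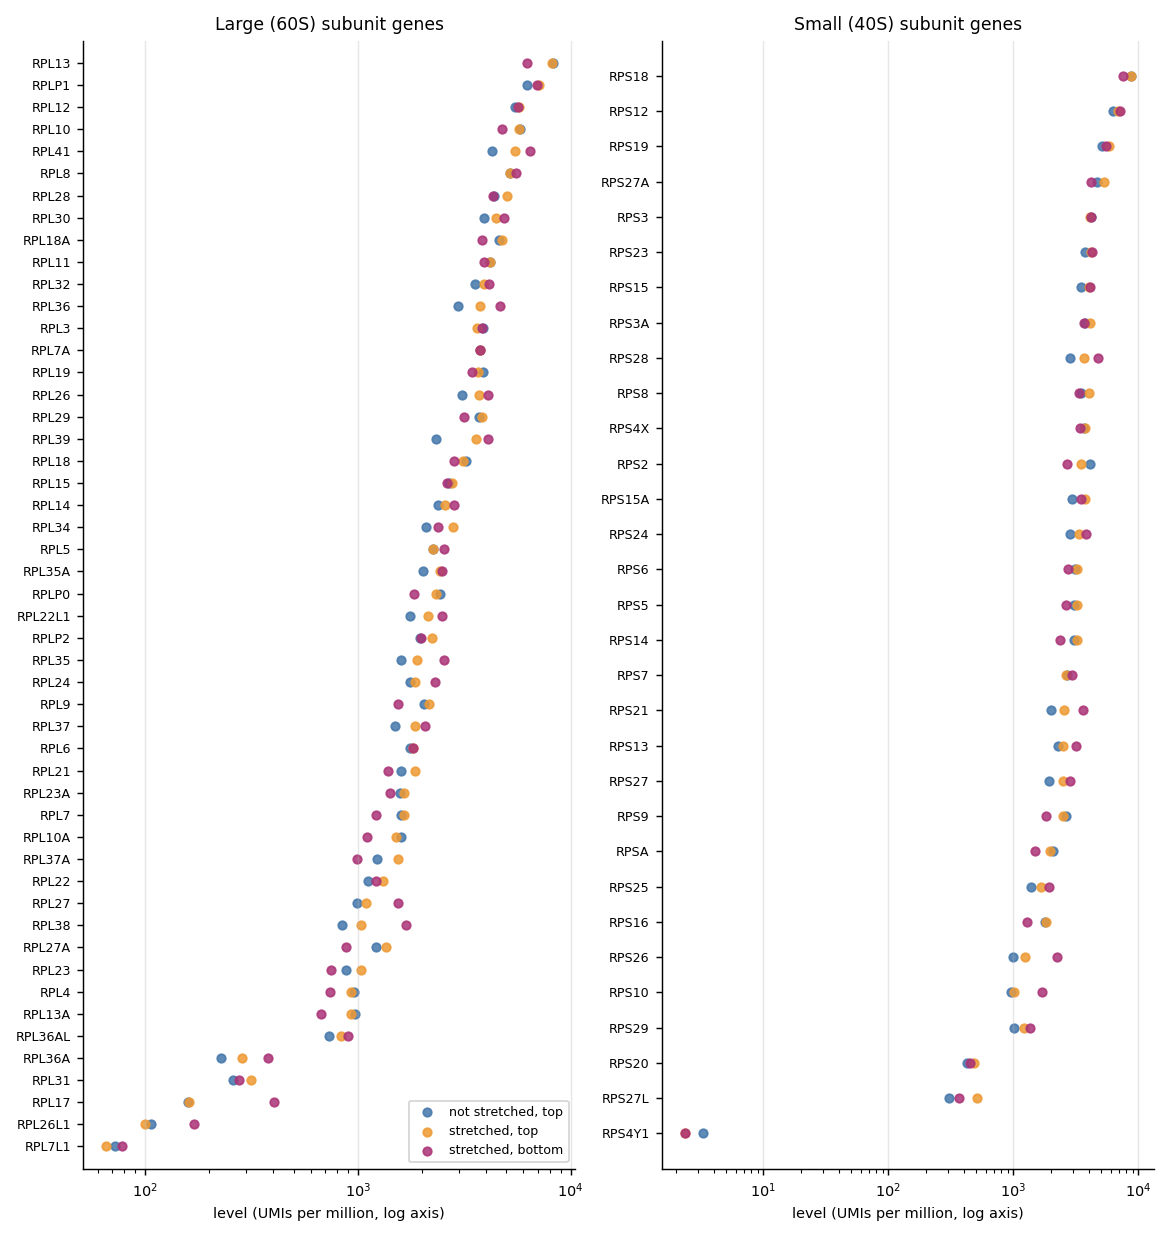
Levels of ribosomal protein genes in CPM (log axis), 60S genes on the left and 40S genes on the right, ordered by mean level, with 1 point per library. Most genes lie above 1000 CPM with the 3 libraries close together, while RPL17 stands low and has the stretched bottom library well to the right.

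The first comparison asks what stretch does to cells that stayed in the top channel. Ribosomal protein mRNAs were mostly a little higher with stretch: 63 of 84 members lay above 0 and 21 below when levels were compared as log2 ratios after adding 1 CPM, with a median of 0.12, beside a median of −0.17 over all features of at least 1 CPM. Among the 83 members with 10 CPM or more in one of the libraries, 2 passed 1.5-fold upward (2.41%, against 0.175% of all 9119 features tested) and 0 downward (against 0.592%). RPL39 (ENSG00000198918, chrX:119786504-119791643, minus strand, 3 exons, on hg38 by GENCODE release 29, as for the positions that follow), a very small protein that lines the nascent peptide exit tunnel, was at 2326 CPM without and 3589 CPM with stretch, and at 4088 CPM in the bottom channel. It was 1.54-fold higher with stretch (95% interval 1.537 to 1.548). RPS27L (ENSG00000185088, chr15:63125872-63158021, minus strand, 4 exons), a paralog of RPS27 known as a p53 target, was at 307, 511 and 369.9 CPM, so that the stretched top library stood alone as the highest. It was 1.67-fold higher there than without stretch (1.652 to 1.684).

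Below the threshold, the next highest members in stretched top cells were RPL34 (2092 against 2817 CPM, log2 ratio 0.43), RPS28 (2831 against 3697 CPM, 0.38) and RPS27, the zinc finger partner of RPS27L (1913 against 2495 CPM, 0.38). At a smaller threshold of 25% higher or 20% lower, 11 members were higher (against 1.51% of features) and 0 were lower (against 12.9%). All 11 have coding sequences of at most 130 residues. The lowest ratios belonged to RPS4Y1 (−0.36, with under 10 CPM in either library), RPS2 (4073 against 3481 CPM, −0.23), RPL7L1 (−0.15), RPS19BP1 (−0.14) and RPL3 (3893 against 3653 CPM, −0.09). RPS2 forms part of the mRNA entry site of the 40S subunit, and RPL3 lies beside the peptidyl transferase centre. The subunits had like medians, 0.10 for 60S and 0.13 for 40S genes. The P stalk genes RPLP1 and RPLP2 had ratios of 0.20 and 0.19 and RPLP0 −0.06, and the 5S particle proteins RPL5 and RPL11, which bind MDM2 when free, had 0.00 each. TMM and median of ratios scaling, which set the median of all features near 0, placed the members' median at 0.30 and 0.31.

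The second comparison sets bottom-channel cells against top-channel cells of stretched chips. Here the members lay on both sides of 0, 39 above and 45 below. Their median was near that of all features, −0.03 beside −0.07. This median turned to 0.04 under TMM and 0.05 under median of ratios scaling. In cells of 10000 to 40000 UMIs, where the makeup of the bottom cells also differs, it was −0.14 beside 0.08 over all features. Of 83 members, 7 were at least 1.5-fold higher (8.43%, against 7.93% of 8870 features) and 3 at least 1.5-fold lower (3.61%, against 11%), so the share of higher members was near that of features in general. At 25% higher or 20% lower, 13 members were higher (against 22.3%) and 19 lower (against 23.4%). Among other features of at least 100 CPM with up to 132 coding residues, 57 of 234 were at least 1.5-fold higher and 8 lower. At 133 to 192 residues 37 of 247 were higher and 16 lower, and at 194 to 427 residues 81 of 480 and 28. Members in these ranges had 2 of 27, 4 of 29 and 0 of 26 higher.

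RPL17 (chr18:49488453-49492523, minus strand), a 60S protein near the tunnel exit, was at 159 and 162 CPM in the top libraries and at 403 CPM in the bottom library, 2.49-fold above stretched top (2.455 to 2.532). Its bottom value stood apart from both top values. Overlap with other features was taken over the last 1000 exonic bases, or over the whole transcript where it is shorter. Of these bases of RPL17, 68.6% overlap another annotated feature on the same strand, RPL17-C18orf32. RPS10 was at 952, 1015 and 1683 CPM, 1.66-fold higher in the bottom than in the stretched top library (1.646 to 1.669). Of its bases so taken, 88.0% overlap RPS10-NUDT3. Other overlapping members were RPL36A (77.6%, RPL36A-HNRNPH2), RPL26 (38.7%, AC135178.2), RPL36 (28.0%, HSD11B1L) and RPS13 (8.98%, PIK3C2A). All 7 overlapping members lay above 0 in the bottom channel, with a median of 0.40, against −0.09 in the 77 others. How reads in such stretches were assigned to the overlapping features was not tested.

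Members with no such overlap also passed the threshold. RPS26 (chr12:56041351-56044697, plus strand), a 40S protein at the mRNA exit channel, was at 999, 1247 and 2214 CPM and 1.78-fold higher in the bottom than in the stretched top library (1.765 to 1.786). RPL38, a small 60S protein, was at 840.3, 1031 and 1679 CPM and differed 1.63-fold (1.617 to 1.639). Both genes had their 3 libraries in the same order, lowest without stretch and highest in the bottom channel. RPL26L1 differed 1.71-fold (1.668 to 1.743) and the binding protein gene RPS19BP1 1.64-fold (1.609 to 1.667). In cells of 10000 to 40000 UMIs, 3 of the 7 stayed past the threshold, RPL17 and RPS26 among them, while RPS10, RPL38, RPL26L1 and RPS19BP1 fell short of it.

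Among the members lower in the bottom channel were RPL37A and RPL27A. RPL37A, a zinc finger protein of the 60S subunit, was at 1234, 1549 and 993 CPM, 1.56-fold lower (1.548 to 1.573). RPL27A was at 1219, 1360.4 and 879.6 CPM, 1.55-fold lower (1.534 to 1.560). For both genes the bottom library was the lowest and the stretched top library the highest. Next were RPS16 (1794, 1821 and 1287 CPM, log2 ratio −0.50) and RPL9 (2051, 2152 and 1547 CPM, −0.48). RPL37A and RPL27A fell short of the threshold with TMM or median of ratios factors, and RPL27A also in cells of matched depth, under a stricter cell filter (at least 2000 genes, 5000 UMIs and at most 10% mitochondrially encoded UMIs) and with equal cell weights.

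The third comparison, bottom-channel cells against top-channel cells without stretch, uses the same libraries again and so carries both differences above. Here 47 members lay above 0 and 37 below, with a median of 0.09 beside −0.24 over all features. Of 83 members, 14 were at least 1.5-fold higher (16.9%, against 6.8% of 9218 features) and 2 at least 1.5-fold lower (2.41%, against 20.7%). At 25% higher or 20% lower, 24 were higher (against 17.3%) and 14 lower (against 38.7%). Other features of at least 100 CPM with up to 132 coding residues had 100 of 234 at least 1.5-fold higher and 7 lower. At 133 to 192 residues 50 of 247 were higher and 18 lower, and at 194 to 427 residues 61 of 480 and 30. Among the 5 highest members were RPL17 (2.53-fold, 2.496 to 2.574), RPS26 (2.22-fold, 2.202 to 2.230), RPL38 (2.00-fold, 1.984 to 2.013) and RPS21 (1.79-fold, 1.781 to 1.799). RPS21, a small 40S protein, was at 1998, 2555 and 3576 CPM.

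RPL39 (1.76-fold) and RPS10 (1.77-fold) were also past the threshold. They were joined by 2 small proteins, RPS28 at the mRNA exit channel (2831, 3697 and 4748 CPM, 1.68-fold) and RPL41, the shortest ribosomal protein (4274, 5467 and 6474 CPM, 1.51-fold). The last 5 were RPL36A (227, 286 and 378 CPM), RPL26L1, RPL35 (1602, 1896 and 2535 CPM), RPL36 (2964, 3768 and 4682 CPM) and RPL27 (997, 1097 and 1553 CPM), at 1.56-fold to 1.66-fold. For all 14 except RPL26L1, whose top libraries lay at 107 and 100.1 CPM, the levels stood in the order not stretched top, stretched top, stretched bottom. Of the lower members, RPS2 was at 4073, 3481 and 2660.15 CPM and 1.53-fold lower (1.524 to 1.539), but short of the threshold in cells of 10000 to 40000 UMIs and with TMM or median of ratios factors. RPS9 (2634, 2476 and 1811 CPM), RPL13A (975.4, 929 and 671 CPM) and RPL10A (1596, 1508 and 1110.3 CPM) followed, with log2 ratios of −0.54, −0.54 and −0.52. Of the 14 higher members, 9 stayed past the threshold in cells of 10000 to 40000 UMIs and 11 with equal cell weights. With totals that leave out mitochondrially encoded UMIs 10 stayed, while RPL35, RPL36, RPL41 and RPL27 fell short. With TMM or median of ratios factors 24 members were higher and 0 lower.

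In stretched against not stretched top cells, members with shorter coding sequences had the higher ratios. All 27 of the shortest ribosomal proteins (25 to 132 residues) lay above 0, with a median log2 ratio of 0.30 and a range of 0.13 to 0.74. The 29 of middle length (133 to 192 residues) had a median of 0.09, and of the 27 longest (194 to 427 residues) 11 lay above 0 and 16 below, with a median of −0.01. Under median of ratios scaling the short and long medians were 0.48 and 0.18, so the sign of the long group turned. Scaling moves all log2 ratios of a comparison nearly alike, so the difference of 0.30 between these medians could hardly change with it. Summed over genes, the short group held 5.52%, 6.76% and 7.46% of all UMIs, the middle group 8.07%, 8.71% and 8.14%, and the long group 8.01%, 7.997% and 7.20%. The short group was thus higher in each library in that order, while the long group was lowest in the bottom channel.

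Across the 83 genes the log2 ratio with stretch and the log2 coding length had a Pearson r of −0.77 and a Spearman rho of −0.85. For stretched bottom against stretched top they were −0.28 and −0.37, and for stretched bottom against not stretched top −0.54 and −0.63. With transcript length in place of coding length, r and rho with stretch were −0.01 and −0.09. They were −0.30 and −0.33 for bottom against stretched top, and −0.26 and −0.30 for bottom against not stretched top. The points of each share the same pair of libraries, genes are not independent replicates, and no p is given. Other features of the same range of coding lengths with at least 100 CPM on average (966 genes) had −0.43 and −0.42 with stretch, −0.13 and −0.15 for bottom against stretched top, and −0.25 and −0.31 for bottom against not stretched top. Their medians with stretch were 0.13 for 234 genes of the short range, 0.00 for 247 of the middle range and −0.04 for 480 of the long range. The tilt was therefore not limited to ribosomal protein genes. For bottom against stretched top, these other abundant genes had medians of 0.38, 0.31 and 0.27 in the same order of length, where the ribosomal protein genes had 0.15, −0.09 and −0.15. For bottom against not stretched top the other genes had 0.49, 0.32 and 0.23, and the ribosomal protein genes 0.43, −0.01 and −0.17. Under alternatives of cells and added CPM, the Pearson r with stretch lay between −0.78 and −0.76, and without the 6 paralogs it was −0.80. Scaling could hardly move r, since it shifts all ratios of a comparison nearly alike.

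**Figure D2:**
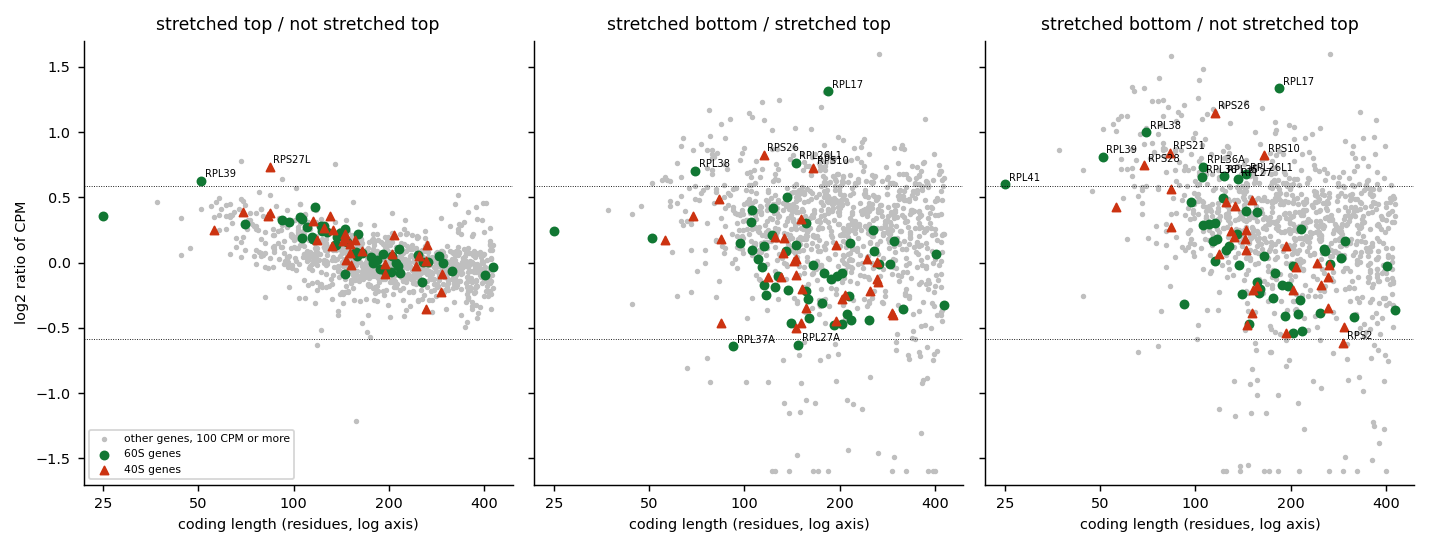
Log2 ratio of CPM (vertical axis) against coding length in residues (log axis) for 60S genes (circles), 40S genes (triangles) and other genes of at least 100 CPM (grey), 1 panel per comparison. Dotted lines mark 1.5-fold, drawn members past it are named, and grey points beyond 1.6 either way are drawn at 1.6. The members slope downward from short to long in the left panel (r = −0.77 over all 83), and in the other panels they scatter more widely.

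The same shift was present cell by cell. The UMIs of the 27 shortest genes divided by those of the 27 longest had a median over kept cells of 0.696 without stretch (quartiles 0.655 and 0.745), 0.850 with stretch (0.801 and 0.907) and 1.02 in the bottom channel (0.955 and 1.08). The quartile ranges did not overlap. In cells of 10000 to 40000 UMIs the medians were 0.688, 0.845 and 0.985. In cells called G1, S and G2/M they were 0.693, 0.700 and 0.690 without stretch, 0.844, 0.856 and 0.848 with stretch, and 1.00, 1.03 and 1.03 in the bottom channel, so the order of the libraries was the same in each phase. Cells of a library share their preparation, and with 1 library per group a difference between conditions and one between libraries cannot be told apart.

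**Figure D3:**
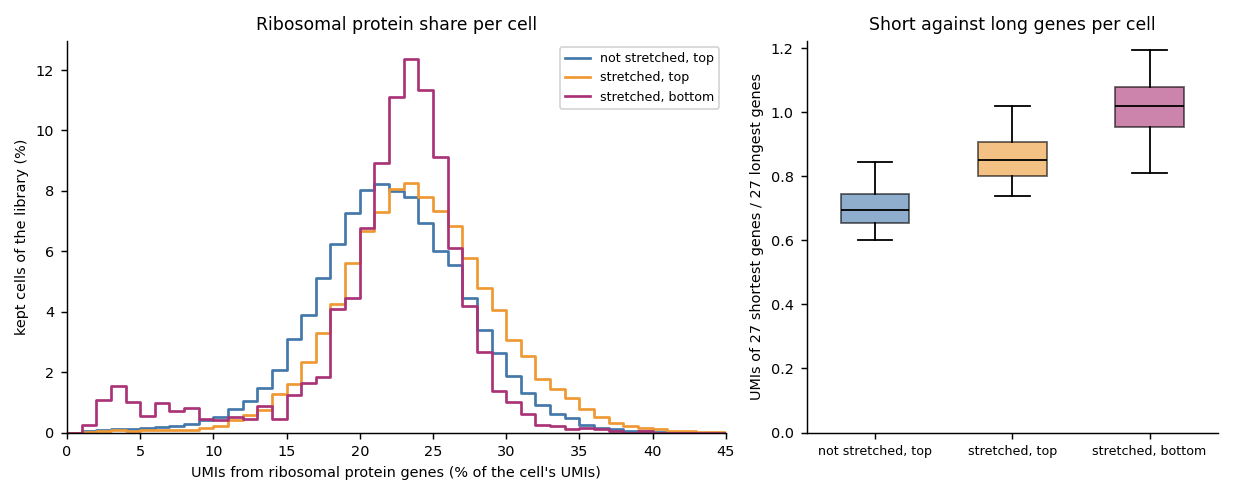
Left, percentage of kept cells (vertical axis) by the share of their UMIs from ribosomal protein genes, in bins of 1 percentage point, 1 line per library; the bottom library has a second group of cells below 12%. Right, UMIs of the 27 shortest over the 27 longest ribosomal protein genes per cell, with box edges at the quartiles, the median as a line and whiskers at the 5th and 95th percentiles; medians rise from 0.696 to 0.850 and 1.02.

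Per cell, ribosomal protein genes made up a median of 22.1% of UMIs without stretch (quartiles 18.9 and 25.5), 23.8% with stretch (20.6 and 27.3) and 23.0% in the bottom channel (20.2 and 25.1). The quartile ranges overlapped widely. With every cell thinned to 3000 UMIs the medians were 21.7%, 23.6% and 22.9%. At that depth the standard deviation over cells was 5.04, 5.16 and 5.95 percentage points, where drawing 3000 UMIs at a fixed share would give 0.753, 0.778 and 0.753. The 60S and 40S shares of a cell moved together, with a Spearman rho over cells of 0.91, 0.91 and 0.86. Cells called G1 had the highest median share in each library (23.0%, 25.3% and 23.6%), followed by S (20.8%, 22.4% and 22.9%) and G2/M (20.7%, 22.2% and 22.7%). Cells called G1 also had fewer UMIs than G2/M cells in each library, and their mitochondrial share was higher (medians of 11.5%, 12.1% and 4.72% against 8.30%, 8.97% and 3.86%).

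A small group of cells had little ribosomal protein mRNA. Under 12% of UMIs, a boundary set after the distribution was seen, lay 504 cells without stretch (2.93%, 95% interval 2.68 to 3.19), 262 with stretch (1.30%, 1.15 to 1.47) and 163 in the bottom channel (8.35%, 7.16 to 9.67). Between 10% and 14% lay 658, 393 and 44 cells. The bottom-channel cells below the boundary had a median share of 5.61%, and their median UMI count was 11926 against 43165.5 in the rest of that library, with a mitochondrial share of 13.1% against 3.95%. Low shares in the bottom library were most frequent at 1 range of depth. Its 242 shallowest cells (median 1474.5 UMIs) had a median share of 23.3%, and the next 159 (median 5283 UMIs) had 22.7%. The next 156 cells (median 15160 UMIs) had 10.4%, with a mitochondrial share of 10.9%, and the 400 above them (median 32813 UMIs) had 22.5%. The barcodes left out for a mitochondrial share above 20% had shares of 10.96%, 14.5% and 5.36%. Barcodes left out for under 1000 UMIs had 22.4%, 26.8% and 14.5%.

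Cells below the boundary also divided their ribosomal protein UMIs differently among the genes. RPL13A made up 0.845% of ribosomal protein UMIs in such cells without stretch, against 0.448% in the rest, 0.713% against 0.395% with stretch, and 0.745% against 0.290% in the bottom channel. RPL27A (0.864% against 0.561%, 0.831% against 0.578%, 0.729% against 0.383%) was also a larger part of the total there. RPS12 was a smaller part, 2.74% against 2.90%, 2.66% against 2.91% and 2.16% against 3.15%. These genes were chosen after their values were seen. In the bottom channel the short-to-long ratio was 0.886 in cells below the boundary and 1.03 in the others, while in the top libraries it was higher below it (0.769 against 0.695 without stretch and 0.905 against 0.850 with stretch).

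Paralog pairs show how the levels of 2 related genes compared. RPL22L1, which can replace RPL22 in the ribosome, exceeded RPL22 in every library: RPL22L1 was at 1762, 2143 and 2484.5 CPM and RPL22 at 1116, 1310.25 and 1222 CPM. RPL36AL likewise exceeded RPL36A, at 732, 836 and 896 CPM against 227, 286 and 378 CPM, though RPL36A is one of the members that overlap a readthrough feature. In the pairs that follow, the gene named for the variant copy was the lower one in every library. RPS27L was at 307, 511 and 369.9 CPM beside 1913, 2495 and 2829 CPM of RPS27, and only RPS27L was lower in the bottom than in the stretched top library (log2 ratio −0.47, short of 1.5-fold). RPL26 was at 3099, 3706 and 4078 CPM beside 107, 100.1 and 171 CPM of RPL26L1. RPL7 was at 1590.3, 1653 and 1219.6 CPM beside 72.5, 65.5 and 78.2 CPM of RPL7L1. RPS4X was at 3672, 3709.5 and 3403 CPM, against 3.27, 2.34 and 2.35 CPM of RPS4Y1.

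**Figure D4:**
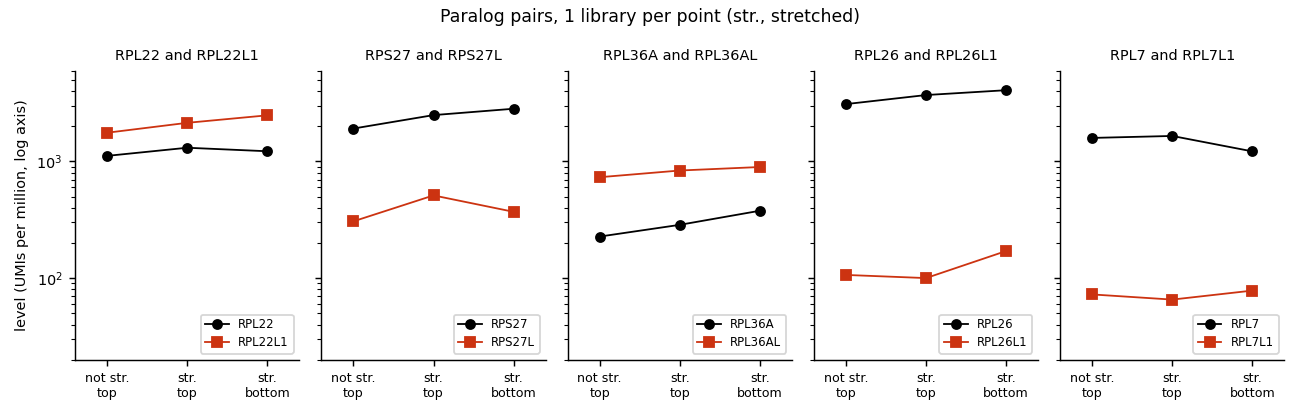
Levels in CPM (log axis) of 5 paralog pairs in the 3 libraries, with 1 point per library and lines only joining points of 1 gene. RPL22L1 and RPL36AL lie above their partners in all 3 libraries, and RPS27L peaks in the stretched top library at 511 CPM.

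The genes that build and use ribosomes were compared with the same scale. FAU, made as a ubiquitin-like fusion, was at 1896, 2025 and 2374 CPM, and RPS27A, a member made as a ubiquitin fusion, at 4676, 5274 and 4136 CPM. Neither passed the threshold in any comparison. Among 35 translation factors and other TOP mRNA genes, 0 passed with stretch (median log2 ratio −0.02), and for bottom against stretched top 3 were higher (against 7.93% of features) and 0 lower (against 11%), with a median of 0.08. In cells of 10000 to 40000 UMIs the count of higher genes was 1. The 3 were EEF1G (8.23, 8.11 and 19.7 CPM), EIF2S1 (97.8, 97.7 and 183 CPM), the alpha subunit of eIF2, and EIF5A (724, 665 and 1134 CPM). EEF1G is a subunit of elongation factor 1, and 99.8% of its last exonic bases overlap AP002990.1. EEF1A1, the most abundant elongation factor gene here, was at 5020.2, 5698 and 5115 CPM. This list's median turned to −0.06 with totals that leave out mitochondrially encoded and ribosomal protein UMIs.

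Ribosome biogenesis factors were mostly higher in bottom than in stretched top cells. Of 42 such genes, 38 lay above 0, 13 were at least 1.5-fold higher (against 7.93% of features) and 0 were lower (against 11%), with a median of 0.45 where the ribosomal protein genes had −0.03. The median over all features was −0.07. Other genes of at least 100 CPM had 0.38, 0.31 and 0.27 in the short, middle and long range of the members' coding lengths. SBDS, which releases eIF6 from new 60S subunits, was at 58.0, 57.6 and 113 CPM. RRS1, a 5S particle assembly factor, was at 26.5, 25.4 and 50.2 CPM, and PNO1 of the 40S pathway at 39.6, 39.99 and 74.2 CPM. In each of these 3 genes the top libraries were alike and the bottom library stood above both. NOP2, an rRNA methyltransferase gene, was at 6.58, 5.83 and 15.8 CPM, and 98.5% of its last exonic bases overlap AC006064.6. NPM1, the abundant nucleolar chaperone, was at 1820.3, 1785 and 2720 CPM, whereas FBL, the box C/D methyltransferase gene, was at 138, 112 and 94.7 CPM. With stretch, 0 of the 41 tested were past the threshold in either direction, with a median of −0.10. In cells of 10000 to 40000 UMIs the count for bottom against stretched top was 3 and the median 0.17, beside 0.08 over all features.

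Of 14 RNA polymerase I genes, 0 passed with stretch, and 2 were higher (against 7.93% of features) and 0 lower (against 11%) in bottom against stretched top cells: TAF1A (9.51, 10.3 and 18.7 CPM) and ZNRD1, a polymerase I subunit gene (50.8, 49.4 and 78.5 CPM). The list's medians were −0.15 and 0.25, and under the stricter cell filter the count of higher genes was 1. Of 11 genes for ribosomal protein chaperones and importers, GRWD1 (37.7, 33.4 and 54.9 CPM) alone passed in bottom against stretched top cells (against 7.93% of features), with a list median of 0.35 and −0.17 with stretch. Under the stricter cell filter 0 passed. KPNB1, an importin beta gene, was at 256, 215 and 184 CPM. The 6 small nucleolar RNA host genes listed were not among the features analysed here.

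**Figure D5:**
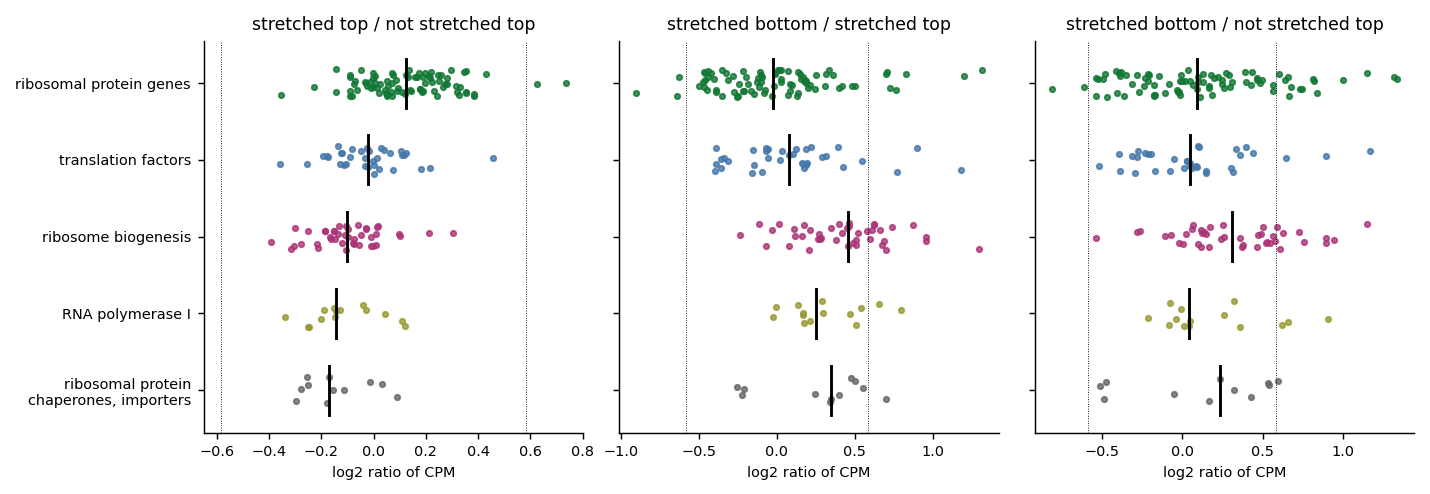
Log2 ratio of CPM (horizontal axis) for each gene of 5 lists (rows), 1 panel per comparison, with a vertical bar at the list's median and dotted lines at 1.5-fold. In the middle panel the biogenesis factors are centred at 0.45 and the ribosomal protein genes at −0.03, while in the left panel the order is the reverse, with −0.10 and 0.12.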

How the data were processed

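Single-cell 3′ RNA libraries were made from 3 groups, 1 library each. The files deposited by the authors give unnormalized UMI counts for every gene in every barcode, produced with Cell Ranger 7.0.0 per the file headers, on hg38 per the submitters' processing notes. The annotation release and the counting of intronic reads are not given in the sources used here. Members and gene lists were chosen with earlier results of these data known.

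A barcode counted as a cell from 500 genes and 1000 UMIs upward and up to 20% mitochondrially encoded UMIs, which left out 34.1%, 20.1% and 44.5% of barcodes. No doublets were removed. UMIs were summed per library and divided by its total (CPM). A count of 0 allows up to 0.0141, 0.0142 and 0.0391 CPM, from a floor of 3 counts. Log2 ratios had 1 CPM added, and a member or feature was called at 1.5-fold where either library had 10 CPM. Fold intervals are exact conditional binomial, at 95%. List medians cover genes of at least 1 CPM on average. Counts and medians cover every member, but a few are not reported here by name or drawn by gene. Otherwise named were members past the threshold, the 5 highest and 5 lowest ratios and levels, and paralog pairs, and for other lists the 2 to 4 largest ratios, to which abundant genes (EEF1A1, NPM1) were added after their values were seen.

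Gene models, coding lengths and overlaps of the last 1000 exonic bases came from GENCODE release 29, start sequences from RefSeq (GRCh38.p14). For a transcript shorter than 1000 bases the overlap covers all of it. Phases were called at 3000 UMIs with scanpy 1.11.5. TMM factors came from edgeR 4.0.16 and median of ratios factors from DESeq2 1.42.0 in R 4.3.3. Ratios and calls were checked on simulated counts.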

Additional observations from a re-analysis of the deposited data

Results flagged for a closer look

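RPL36A-HNRNPH2, a readthrough feature left out by its hyphen and so outside the members' comparisons, was at 2.1 CPM in the stretched bottom library, above the 1.53 CPM of the not stretched top and the 1.06 CPM of the stretched top library. It overlaps RPL36A on the same strand, and no explanation was tested.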

How the results depend on the processing

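Alternatives were changed 1 at a time. Of 28 member ratios past the threshold, 15 stayed past it under all 13 alternatives of cells, weights, scaling and pseudocount, and 0 reversed. No replicate could be left out with 1 library per group. No paired analysis was possible because the groups hold 1 library each. The following 3 alternatives were chosen after seeing the data: leaving out RPS19BP1, cells under 12% ribosomal protein UMIs, or overlapping members.

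The ribosomal protein share (not stretched top, stretched top, stretched bottom) was 20.7%, 23.0% and 22.1% with no cell filter, 21.7%, 23.2% and 23.2% with a stricter one (2000 genes, 5000 UMIs, 10% mitochondrial), 21.5%, 23.0% and 21.0% in cells of 10000 to 40000 UMIs, 22.1%, 24.0% and 21.8% with equal cell weights, 21.5%, 23.2% and 22.9% with equal phase weights, 21.9%, 23.6% and 23.3% without cells under 12%, and 23.9%, 26.1% and 23.8% of nuclear-encoded UMIs. Without shared barcodes the bottom share was 22.8%.

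The median with stretch was 0.15 with no cell filter, 0.10 with the stricter one, 0.11 at matched depth, 0.30 under TMM, 0.31 under median of ratios, 0.13 and 0.18 with totals without mitochondrial, and without mitochondrial and ribosomal protein, UMIs, and 0.11 without overlapping members. In the same order of settings (the stricter filter onward), stretched bottom against stretched top gave −0.014, −0.14, 0.037, 0.053, −0.12, −0.16 and −0.092, with −0.15 under equal cell weights, −0.0056 without cells under 12% and −0.080 without low-level paralogs. Against not stretched top the medians were 0.11 with no cell filter, −0.054 at matched depth, 0.33, 0.36, 0.012 and 0.011 under the 4 scalings, 0.037 without overlapping members, −0.019 under equal cell weights, 0.10 without cells under 12% and 0.057 without low-level paralogs.

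Counts of higher members were, with stretch, 1 without low-level paralogs, 11 at 25% higher or 20% lower and 0 at 2-fold. For bottom against stretched top they were 3 at matched depth, 13 at 25% higher or 20% lower, 2 at 2-fold and 4 without overlapping members, and of lower members 5 at matched depth, 1 under TMM, 1 under median of ratios, 10 with totals without mitochondrial and ribosomal protein UMIs, 19 at 25% higher or 20% lower and 0 at 2-fold. For bottom against not stretched top, higher members were 9 at matched depth, 11 with equal cell weights, 10 with both reduced totals and 24 under TMM and median of ratios. They were 24 at 25% higher or 20% lower, 3 at 2-fold and 9 without overlapping members. Lower members were 0 under TMM and median of ratios, 5 with both reduced totals, 14 at 25% higher or 20% lower and 0 at 2-fold. The causes were not tested. Depth limits members near 1 CPM, and the bottom library holds the fewest cells.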
